A study of Homo sapiens with 4 samples.

Results

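Transcripts of 40 genes of the Fanconi anaemia pathway, homologous recombination, mismatch repair and the DNA damage kinases were followed in 697 cells, an established human B-cell precursor acute lymphoblastic leukaemia line, after exposure to the degrader MZ1. The 40 were taken by symbol from a count table of 28814 genes, and each had exactly 1 row. They were sorted by role into 8 groups. Cells of both groups were the same unmodified line. The MZ1 group (2 libraries) received 1 µM MZ1 for 24 h and the control group (2 libraries) the solvent DMSO alone in equal volume for the same time. MZ1 joins a BET bromodomain ligand to one for the ubiquitin ligase VHL, so that BET proteins are degraded. 697 is a single line, so it stands for 1 leukaemia, and the labels do not say whether the 2 libraries of a group came from separate cultures. The spread behind each p-value may therefore be technical.

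DNA strands that are cross-linked, broken or mispaired are handled by linked systems. In the Fanconi pathway a core complex of several FANC proteins ubiquitinates the FANCD2 and FANCI pair at a stalled fork, and nucleases then unhook the crosslink. Homologous recombination resects a broken end, builds the recombinase filament with the help of BRCA2 and the BCDX2 and CX3 complexes, and copies the sister chromatid. It works mainly in S and G2 phase. Mismatch repair corrects replication errors through MutS dimers, which recognise the mispair, and MutL dimers, which direct the cut. ATM responds to broken ends and ATR to exposed single-stranded DNA, and both signal through the checkpoint kinases CHK2 and CHK1. Many genes of these systems are known targets of E2F factors in dividing cells.

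The libraries held 14246367 to 16488005 counted reads. Levels are given as CPM, a gene's reads relative to all reads of its library, after TMM scaling, which corrects for differences in composition. A level is thus a share of its library, as the labels name no spike-in. A gene was called when the adjusted p of edgeR's quasi-likelihood test, corrected over all 16862 tested genes by the Benjamini-Hochberg method, was below 0.05. Of 10 B-precursor markers, including CD79A and PAX5, 10 were detected in every library. Their summed level was 3819 to 3836 CPM with DMSO and 1317 to 1349 CPM with MZ1, and all 10 were called lower. The summed level of 4 myeloid markers was 5.31 to 6.35 CPM with DMSO and 17.2 to 21.1 CPM with MZ1, with MPO at 0 in both DMSO libraries. MPO, CD14 and LYZ were called higher, whereas CSF1R, most of the sum with DMSO, was called lower (from 5.14 to 0.929 CPM). That of 3 erythroid markers was 0.122 to 0.472 CPM and then 2.75 to 3.61 CPM, with HBA1 at 0 with DMSO, that of 2 stromal markers 10.6 to 12.5 CPM and then 13.9 CPM in both libraries, and the T-cell marker TRAC went from 114 and 117 reads to 0. Their part in the results below was not tested. In bulk RNA, fewer cells in a given phase and less RNA per cell cannot be told apart.

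After MZ1, 28 of the 40 genes were called lower, 6 higher (FANCM, RAD52, XRCC3, BLM, ATM and ATRIP), and 6 were not called (BARD1, BRCA2, RAD54B, RMI1, PMS1 and TOPBP1). All 40 passed the filter on low counts. Calls in either direction numbered 34, or 85% of the 40, against 84.2% of all tested genes and 87.3% of tested protein-coding genes. Lower calls made up 70% of the 40, against 41.3% of all tested genes and 48.8% of tested protein-coding genes. Higher calls made up 15%, against 42.8% and 38.5%. The 2 groups of libraries did not overlap for 36 genes (90%), against 91.3% and 93.3%. Most falls were moderate. Those of at least 2-fold numbered 12, or 30%, close to the 29.9% of tested protein-coding genes and the 26.2% of all tested genes that fell as far. Rises of at least 2-fold numbered 2 (5%), against 22.2% of tested protein-coding genes. The median log2 fold change (MZ1 over DMSO) was -0.57 for the 40, -0.20 for tested protein-coding genes and 0.05 for all tested genes. With upper-quartile scaling, which raised log2 fold changes by a median of 0.27, 22 of the 40 were called lower and 11 higher, and their median was -0.29. The largest fall was that of RAD51D (-3.72) and the largest rise that of RAD52 (2.0).

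**Figure D1:**
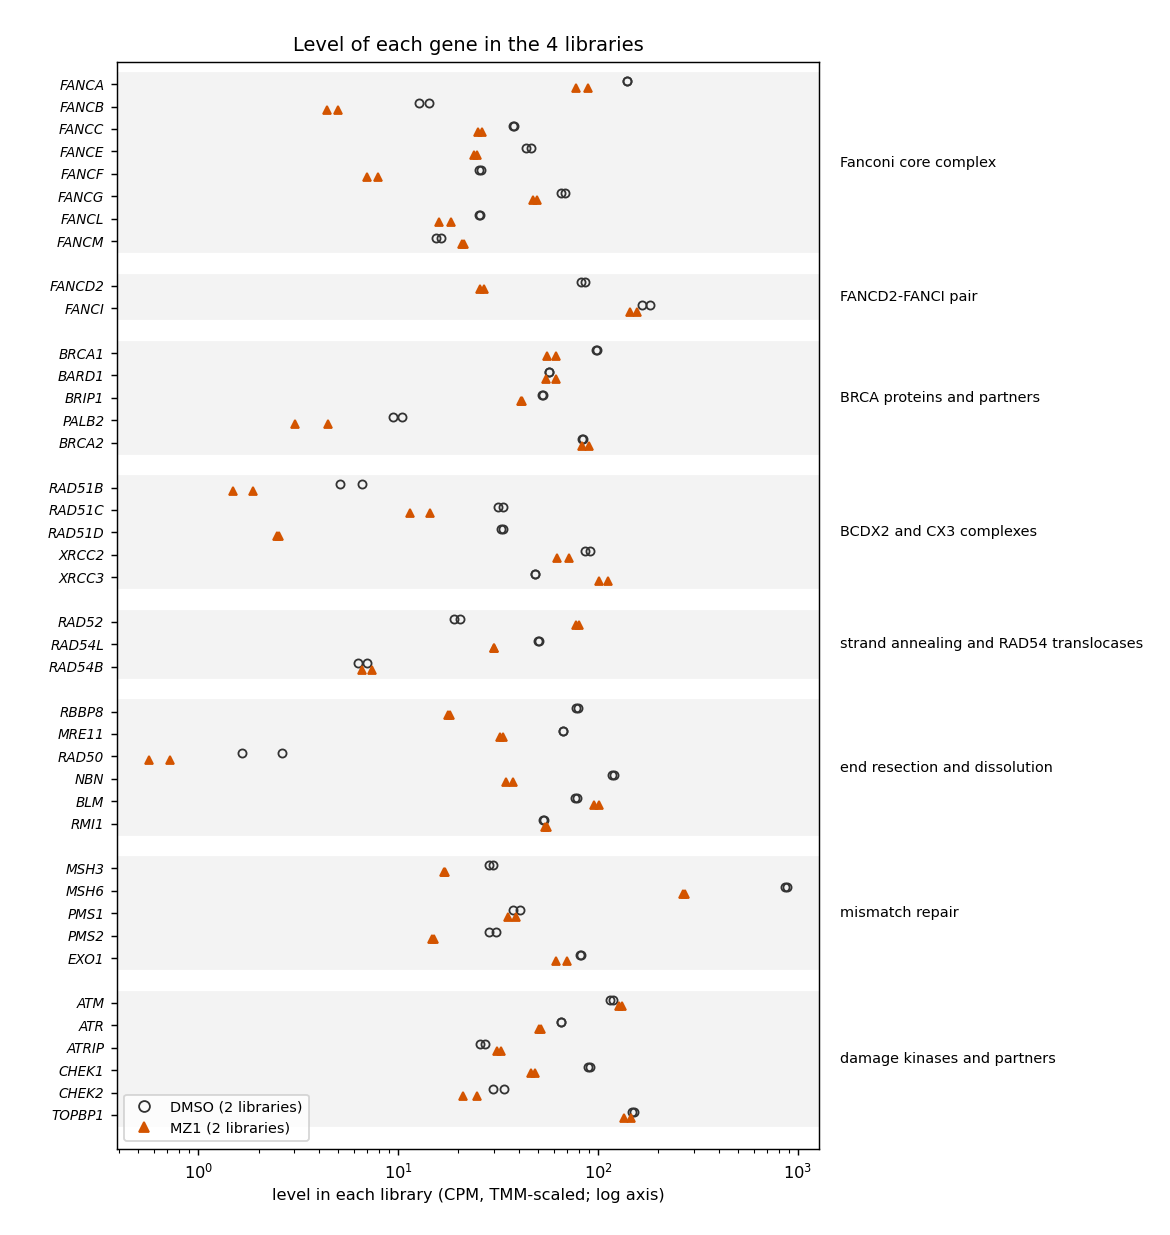
Level of each of the 40 genes in each library, in TMM-scaled CPM on a log axis, grouped by role; open circles are the 2 DMSO libraries and triangles the 2 MZ1 libraries. The groups did not overlap for 36 of the 40 genes, with MSH6 at 865 to 881 CPM falling to 267 to 272 CPM at the top of the range and RAD50 at 0.566 to 2.63 CPM at the bottom.

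**Figure D2:**
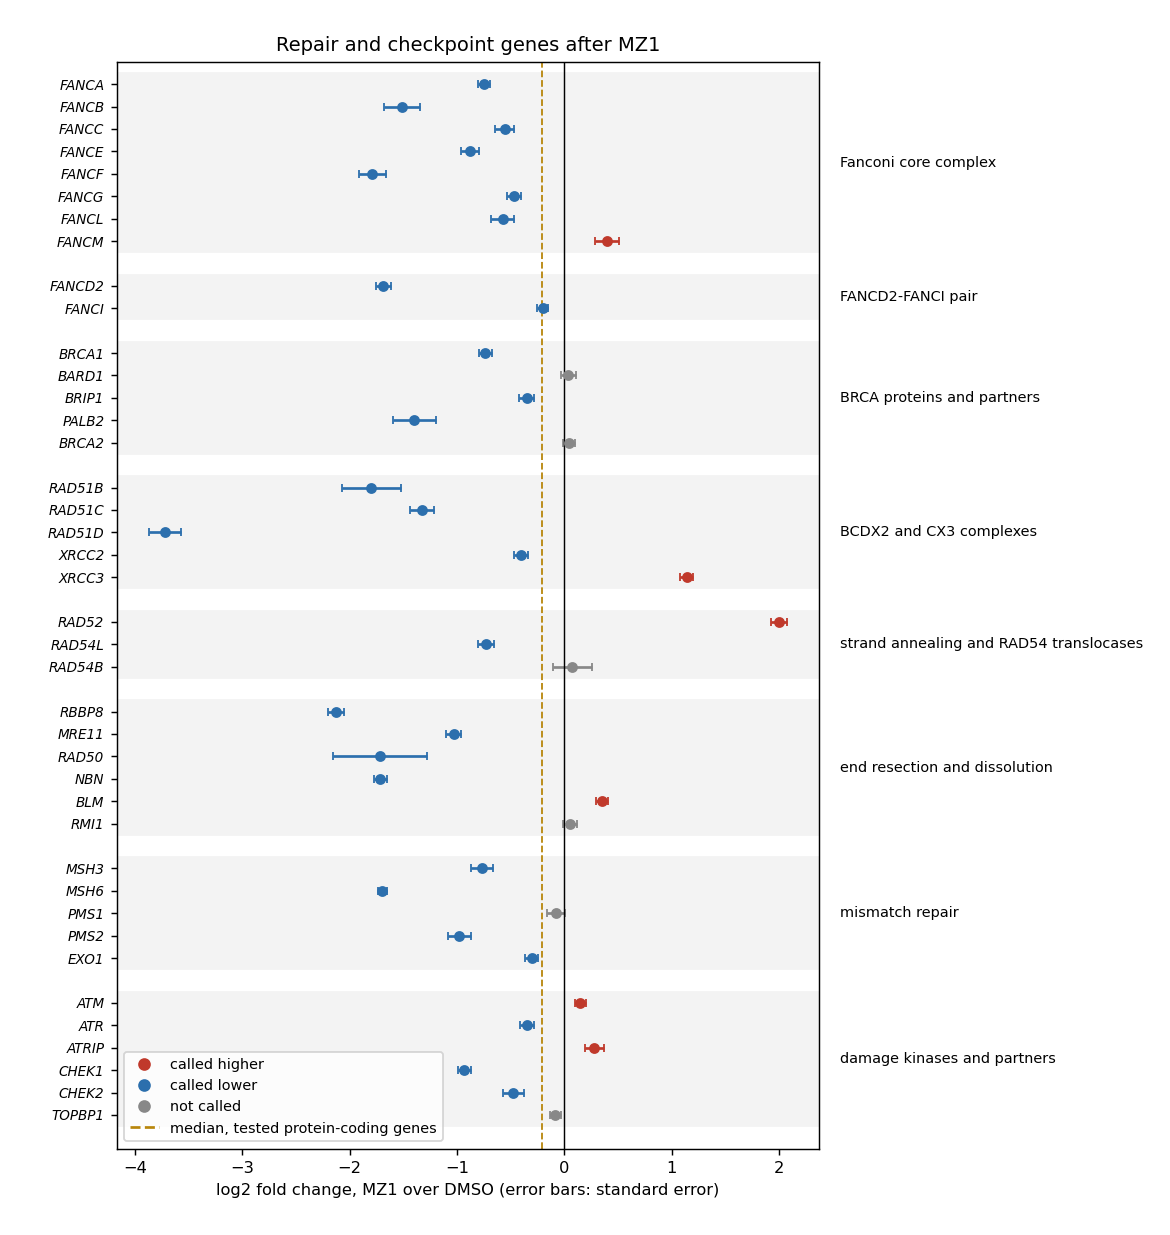
Log2 fold change (MZ1 over DMSO, edgeR) of each gene with its standard error, coloured by call; the dashed line is the median of tested protein-coding genes (-0.20). Most points lie to the left of 0, with RAD51D at -3.72 farthest left and RAD52 at 2.0 farthest right.

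Promoter sequences from RefSeq (GRCh38.p14, 250 bases before to 50 after a gene's start) were matched by symbol for 37 of the 40 genes. FANCI, RAD54B and NBN had no match. The E2F recognition sequence was searched on both strands as TTTCCCGC, TTTCGCGC, TTTGCCGC and TTTGGCGC. At least 1 of these stood in 9 of the 37 promoters (24.3%), against 5.39% of 10246 promoters of tested protein-coding genes and 3.31% of all 35116 promoters in the table. Of the 9 genes, 8 were called lower (MSH6, FANCD2, PMS2, MSH3, FANCA, FANCC, XRCC2 and EXO1) and TOPBP1 was not called. Of the 37 genes 26 were called lower, so the 8 were a minority of the lower genes. RAD51D and RBBP8, which fell most, had no match. None of the 6 genes called higher had a match. Whether a match goes with the direction of change was not tested. A match is a description of the sequence, not a bound site. The 30-base windows around the 11 matches are shown because they are what these promoters share. Each is written 5′ to 3′ on the gene's strand, with the match in capitals and its first base counted from the gene's start. The 2 matches in MSH3 overlap each other.

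EXO1, chr1:241848197-241848226, plus strand, match from 5: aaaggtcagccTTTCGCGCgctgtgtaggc
FANCA, chr16:89816801-89816830, minus strand, match from -172: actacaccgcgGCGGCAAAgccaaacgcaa
FANCC, chr9:95317863-95317892, minus strand, match from -172: ccggggcttccGCGCGAAAccgggaacact
FANCC, chr9:95317737-95317766, minus strand, match from -46: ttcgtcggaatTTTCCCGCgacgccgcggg
FANCD2, chr3:10026424-10026453, plus strand, match from -2: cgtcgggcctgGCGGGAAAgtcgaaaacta
MSH3, chr5:80654534-80654563, plus strand, match from -107: gcgcggtcaagTTTGGCGCgaaattgtggc
MSH3, chr5:80654538-80654567, plus strand, match from -103: ggtcaagtttgGCGCGAAAttgtggccgcc
MSH6, chr2:47783137-47783166, plus strand, match from 4: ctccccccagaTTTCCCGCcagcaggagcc
PMS2, chr7:6009131-6009160, minus strand, match from -43: cgggaagtattTTTGCCGCcccgcccggaa
TOPBP1, chr3:133661930-133661959, minus strand, match from -7: ccgcgcggttgGCGCGAAAgtcggttcccg
XRCC2, chr7:152676102-152676131, minus strand, match from 22: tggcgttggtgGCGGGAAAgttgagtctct

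The shares of other short motifs were closer to those of other promoters. CCAAT, on both strands, stood in 17 of the 37 promoters (45.9%, against 36.8% of promoters of tested protein-coding genes). The cell cycle homology region, as TTTGAA or TTCGAA, stood in 3 (8.11% against 11.6%), the E-box CACGTG in 3 (8.11% against 9.92%) and the NRF1 half-site GCATGCGC in 1 (2.70% against 5.46%). CCAAT was present in 5 of the 6 genes called higher, in 10 of the 26 called lower and in 2 of the 5 not called. Whether CCAAT goes with the direction of change was not tested. The 250 bases before the RefSeq start are printed for the genes with the 2 largest falls, RAD51D and RBBP8, and the 2 largest rises, RAD52 and XRCC3. The XRCC3 count has a limit given below. The RefSeq start lies 135067 bases from the outermost annotated start for RBBP8, 40359 for RAD52 and 1764 for RAD51D. These sequences may therefore not be the promoters in use. Capitals mark any motif named above. XRCC3 has 5 CCAAT matches over both strands, and RAD51D, RBBP8 and RAD52 have no match to any of these motifs in this window.

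RAD51D, chr17:35119759-35120008, minus strand: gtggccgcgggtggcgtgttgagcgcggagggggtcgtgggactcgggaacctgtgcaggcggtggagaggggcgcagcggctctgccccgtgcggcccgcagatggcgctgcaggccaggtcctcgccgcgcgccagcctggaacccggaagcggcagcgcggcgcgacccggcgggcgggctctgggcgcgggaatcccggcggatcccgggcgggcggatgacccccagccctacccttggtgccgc
RBBP8, chr18:22933078-22933327, plus strand: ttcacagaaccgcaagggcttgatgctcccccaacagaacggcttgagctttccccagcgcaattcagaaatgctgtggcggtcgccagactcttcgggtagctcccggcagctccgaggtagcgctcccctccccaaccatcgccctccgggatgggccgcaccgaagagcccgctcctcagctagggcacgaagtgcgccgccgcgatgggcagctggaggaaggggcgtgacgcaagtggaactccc
RAD52, chr12:949695-949944, minus strand: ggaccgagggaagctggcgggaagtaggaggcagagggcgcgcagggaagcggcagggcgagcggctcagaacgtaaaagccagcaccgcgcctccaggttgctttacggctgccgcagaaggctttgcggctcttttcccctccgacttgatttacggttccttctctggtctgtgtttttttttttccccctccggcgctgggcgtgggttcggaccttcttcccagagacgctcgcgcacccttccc
XRCC3, chr14:103715452-103715701, minus strand: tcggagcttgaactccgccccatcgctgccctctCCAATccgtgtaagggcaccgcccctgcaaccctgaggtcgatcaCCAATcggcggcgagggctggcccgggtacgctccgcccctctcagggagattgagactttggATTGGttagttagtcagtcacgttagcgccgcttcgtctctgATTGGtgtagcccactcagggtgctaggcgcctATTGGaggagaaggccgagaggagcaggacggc

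In the Fanconi core complex 7 of 8 genes were called lower and 1 higher (median log2 fold change -0.66). The counts were the same under upper-quartile scaling. Of tested protein-coding genes 48.8% were called lower and 38.5% higher, shares that stand beside the counts of the groups below too. Falls of at least 2-fold numbered 2 of the 8 (25%), against 29.9% of tested protein-coding genes. FANCA, which organises the complex together with FANCG, was at 139.9 and 139 CPM in the DMSO libraries and at 88.9 and 77.0 CPM with MZ1. Both MZ1 libraries lay well below both controls, and the change was -0.75 ± 0.06 on the log2 scale (SE; edgeR adjusted p = 8.22e-12). FANCG was at 64.9 and 68.3 CPM and then at 47.2 and 49.2 CPM (-0.47 ± 0.07). FANCL, the RING ubiquitin ligase that modifies FANCD2, was at 25.5 and 25.8 CPM and fell to 18.4 and 16.05 CPM (-0.57 ± 0.11).

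The steepest falls of the core complex were those of FANCF and FANCB. FANCF, an adaptor protein encoded by a single exon (chr11:22622890-22625841, minus strand), was at 26.0 and 25.4 CPM with DMSO and at 7.92 and 6.94 CPM with MZ1, or 3.45-fold lower (edgeR adjusted p = 2.2e-12). FANCB, which is X-linked and joins FANCL in the catalytic module, fell from 12.7 and 14.2 CPM to 5.02 and 4.41 CPM, or 2.85-fold. FANCE, the bridge to FANCD2, fell 1.84-fold and FANCC 1.47-fold. FANCM, the translocase that anchors the complex to DNA, went the other way. It was at 16.4 and 15.5 CPM with DMSO and at 20.7 and 21.2 CPM with MZ1, a rise of 0.39 ± 0.11 (edgeR adjusted p = 0.00248). The groups did not overlap for any of the 8 genes, as was so for 93.3% of tested protein-coding genes. Of the exonic length of FANCA 23.6% is covered by ZNF276 on the opposite strand (0.01 ± 0.07) and of FANCL 19.7%, chiefly by VRK2 (-1.39 ± 0.13). Whether the counting used strand is not given in the sources used here. Reads from such stretches therefore cannot be assigned to either gene.

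The 2 proteins that the core complex ubiquitinates work as a pair, but their transcripts changed by different amounts. FANCD2 (chr3:10026414-10101930) was at 82.3 and 86.3 CPM with DMSO and at 25.5 and 26.9 CPM with MZ1. Both MZ1 libraries lay far below both controls, at 3.22-fold lower (-1.69 ± 0.07; edgeR adjusted p = 3.02e-17). FANCD2 has pseudogene copies that can share reads with it. FANCI was at 181 and 166 CPM and then at 156 and 145 CPM, a small fall of -0.20 ± 0.05 (edgeR adjusted p = 0.001) that turned to 0.07 with upper-quartile scaling. The ratio of FANCD2 to FANCI reads, in which the library scaling cancels, was 0.455 and 0.521 in the DMSO libraries and 0.163 and 0.186 with MZ1.

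Among the BRCA proteins and their partners, 3 of 5 genes were called lower and 0 higher at this threshold, and with upper-quartile scaling 2 were lower and 2 higher. BRCA1 (chr17:43044295-43170245), a ubiquitin ligase that promotes resection, was at 98.7 and 97.5 CPM with DMSO and at 61.8 and 55.7 CPM with MZ1 (-0.74 ± 0.06; edgeR adjusted p = 2.18e-11). BARD1, its obligate partner, was at 56.6 and 56.5 CPM and then at 61.3 and 54.6 CPM. The BARD1 groups overlapped and it was not called (0.04 ± 0.07, edgeR adjusted p = 0.61), whereas upper-quartile scaling gave a called rise of 0.31. The count ratio of BRCA1 to BARD1 was 1.75 and 1.73 with DMSO and 1.01 and 1.02 with MZ1, so the reads of both genes were about equal with MZ1.

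PALB2, which links BRCA1 to BRCA2, was the gene of this group that fell most. It was at 10.4 and 9.44 CPM with DMSO and at 4.46 and 3.04 CPM with MZ1, or 2.64-fold lower (-1.40 ± 0.20). BRCA2 (chr13:32315474-32400266), which loads the recombinase onto DNA, was at 82.9 and 84.4 CPM and at 89.8 and 82.6 CPM with MZ1. The BRCA2 groups overlapped (0.04 ± 0.06; edgeR adjusted p = 0.474), and with upper-quartile scaling it was called higher by 0.32. There were 7.98 and 8.94 BRCA2 reads per PALB2 read with DMSO and 20.1 and 27.2 with MZ1. BRIP1, the helicase that binds BRCA1, fell from 52.8 and 52.6 CPM to 41.1 and 41.6 CPM (-0.35 ± 0.07), a call lost with upper-quartile scaling (-0.08).

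RAD51B, RAD51C, RAD51D, XRCC2 and XRCC3, which form the BCDX2 and CX3 complexes that support the recombinase filament, held the largest fall and the second largest rise of the 40 genes. The rise is that of XRCC3, whose count has a limit given below. Of the 5, 4 were called lower and 1 higher. RAD51D (chr17:35092208-35121522, minus strand; ENSG00000185379) was at 33.6 and 32.6 CPM with DMSO, from 1102 reads, and at 2.48 and 2.53 CPM with MZ1, from 70 reads. The fall was 13.2-fold (-3.72 ± 0.15; edgeR adjusted p = 1.3e-17). RAD51B, which spans 910440 bases and was the longest of the 40 genes, was at 6.60 and 5.13 CPM and then at 1.49 and 1.88 CPM (-1.80 ± 0.27). RAD51C, the paralog common to both complexes, fell from 33.4 and 31.4 CPM to 11.5 and 14.4 CPM (-1.33 ± 0.11).

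XRCC2, the fourth protein of BCDX2, changed less than its partners. It was at 91.1 and 85.7 CPM with DMSO and at 71.5 and 62.1 CPM with MZ1 (-0.40 ± 0.06), and its call was lost with upper-quartile scaling (-0.13). The count ratio of XRCC2 to RAD51D was 2.71 and 2.63 with DMSO and 28.9 and 24.5 with MZ1. XRCC3, the partner of RAD51C in CX3, was at 48.3 and 48.4 CPM with DMSO and at 112 and 101 CPM with MZ1, a rise of 1.14 ± 0.06 (edgeR adjusted p = 7.19e-15). KLC1, a kinesin light chain gene on the opposite strand, covers 76.7% of the exonic length of XRCC3 and rose from 69.0 to 255 CPM (1.89 ± 0.05). How far reads of KLC1 enter the XRCC3 count was not tested.

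RAD52, an annealing protein that can pair resected strands, showed the largest rise. RAD52 (chr12:912077-990053, minus strand) was at 19.1 and 20.3 CPM with DMSO and at 80.0 and 77.3 CPM with MZ1. Both MZ1 libraries lay far above both controls, with a rise of 2.0 ± 0.08 (4.0-fold; edgeR adjusted p = 3.39e-18). Other genes cover 5.6% of its exons. RAD54L, a translocase that acts with the recombinase filament, was at 50.1 and 50.4 CPM and fell to 30.3 and 30.2 CPM (-0.73 ± 0.08). LRRC41 on the opposite strand covers 25.1% of RAD54L exons and fell by 1.47 on the log2 scale. The related RAD54B was at 6.29 and 6.96 CPM and at 7.36 and 6.58 CPM with MZ1, groups that overlap (0.07 ± 0.18; edgeR adjusted p = 0.719). FSBP, on the same strand, covers 59.1% of RAD54B exons.

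In the resection and dissolution group 4 of 6 genes were called lower and 1 higher, or 4 lower and 2 higher with upper-quartile scaling. RBBP8, which encodes CtIP, the cofactor that starts resection, was at 79.0 and 77.8 CPM with DMSO and at 17.8 and 18.1 CPM with MZ1. The libraries of each group were close together, and the fall of 4.36-fold (-2.12 ± 0.08; edgeR adjusted p = 1.25e-18) was the second largest of the 40 genes. MRE11, the nuclease of the MRN complex, fell from 66.6 and 67.1 CPM to 33.2 and 32.2 CPM (-1.03 ± 0.07). NBN, the subunit that recruits ATM, was at 120.1 and 117 CPM and then at 37.6 and 34.6 CPM (-1.71 ± 0.06).

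RAD50, the ATPase of the MRN complex, had by far fewer reads than its partners, with 71 over both DMSO libraries and 18 over both MZ1 libraries. In 79.7% of its exonic length it shares sequence with other annotated genes, chiefly ENSG00000283782 on the same strand, which is not analysed here. Its values of 2.63 and 1.65 CPM with DMSO and 0.566 and 0.723 CPM with MZ1 (called lower, edgeR adjusted p = 7.95e-04) are therefore uncertain as a measure of the gene. The count ratio of NBN to RAD50 overlapped between groups, at 45.7 and 70.9 with DMSO and 66.5 and 47.9 with MZ1. BLM, the helicase that dissolves double Holliday junctions, was at 78.3 and 76.2 CPM and rose to 101 and 95.1 CPM (0.35 ± 0.05; edgeR adjusted p = 2.81e-06). RMI1, which acts with BLM, was at 53.6 and 52.9 CPM and at 54.5 and 55.7 CPM and was not called (0.05 ± 0.07, edgeR adjusted p = 0.48; called higher by 0.32 with upper-quartile scaling).

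Mismatch repair genes fell in 4 of 5 cases, with 0 called higher, or 3 lower and 1 higher with upper-quartile scaling. MSH6 (chr2:47695530-47810101), part of the MutS alpha dimer that reads single mispairs, was the most abundant of the 40 transcripts. It was at 881 and 865 CPM with DMSO and at 267 and 272 CPM with MZ1, or 3.24-fold lower (-1.70 ± 0.04; edgeR adjusted p = 1.97e-22). FBXO11 on the opposite strand covers 16.2% of MSH6 exons and rose (0.70 ± 0.06). MSH3, the counterpart of MSH6 in the dimer for longer loops, fell from 29.6 and 28.4 CPM to 17.1 and 17.0 CPM (-0.77 ± 0.10). There were 29.7 and 30.5 MSH6 reads per MSH3 read with DMSO and 15.6 and 16.04 with MZ1.

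The MutL genes divided. PMS2, the endonuclease subunit of MutL alpha, was at 28.3 and 30.8 CPM with DMSO and at 14.8 and 15.2 CPM with MZ1 (-0.98 ± 0.11; edgeR adjusted p = 5.8e-09). PMS2 has near-identical pseudogene copies, so its count depends on how shared reads were treated. PMS1 was at 40.6 and 37.7 CPM and at 35.3 and 38.9 CPM, groups that overlap (-0.08 ± 0.08; edgeR adjusted p = 0.379), and upper-quartile scaling turned this to a called rise of 0.19. The PMS2 to PMS1 count ratio was 0.697 and 0.817 with DMSO and 0.419 and 0.390 with MZ1. EXO1, the exonuclease that removes the mispaired strand and also extends resected ends, fell only from 81.9 and 81.2 CPM to 70.1 and 61.8 CPM (-0.31 ± 0.06), a call lost with upper-quartile scaling (-0.03).

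Among the damage kinases and their partners 3 of 6 genes were called lower and 2 higher, none by 2-fold, and with upper-quartile scaling 1 was lower and 3 were higher. CHEK1, the effector kinase of ATR, fell most, from 91.0 and 89.3 CPM to 46.4 and 48.1 CPM (-0.93 ± 0.06; edgeR adjusted p = 2.61e-13). CHEK2, the effector of ATM, was at 34.0 and 29.8 CPM and then at 21.1 and 24.7 CPM (-0.47 ± 0.10), a call lost with upper-quartile scaling (-0.20). CHEK2 too has pseudogene copies. The CHEK1 to CHEK2 count ratio was 2.68 and 2.998 with DMSO and 2.19 and 1.95 with MZ1.

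The 2 apical kinases moved in different directions by small amounts. ATM (chr11:108222484-108369102) was at 119 and 114 CPM with DMSO and at 127 and 132 CPM with MZ1 (0.15 ± 0.05; edgeR adjusted p = 0.00859). ATR was at 65.2 and 65.4 CPM and then at 52.0 and 50.4 CPM (-0.35 ± 0.06), a call lost with upper-quartile scaling (-0.08). The ATM to ATR count ratio was 1.83 and 1.75 with DMSO and 2.44 and 2.61 with MZ1. ATRIP, which brings ATR to single-stranded DNA, was at 27.1 and 25.6 CPM and at 32.8 and 31.1 CPM with MZ1 (0.28 ± 0.09; edgeR adjusted p = 0.00675), and 27.9% of its exons are shared with TREX1. The ATM call was lost without DMSO replicate 2 (edgeR adjusted p = 0.0623) or MZ1 replicate 2 (0.0721), and also with library totals alone (0.183) or without a count filter (0.217). The ATRIP call was lost without DMSO replicate 2 (edgeR adjusted p = 0.0574) or MZ1 replicate 1 (0.0518), and without a count filter (0.0689). TOPBP1, the activator of ATR, was at 151 and 148 CPM and at 134 and 147 CPM and was not called (-0.09 ± 0.05, edgeR adjusted p = 0.118). It was called lower without MZ1 replicate 2 (-0.15), with library totals alone (-0.16) and without a count filter (-0.16), and higher with upper-quartile scaling (0.19).

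**Figure D3:**
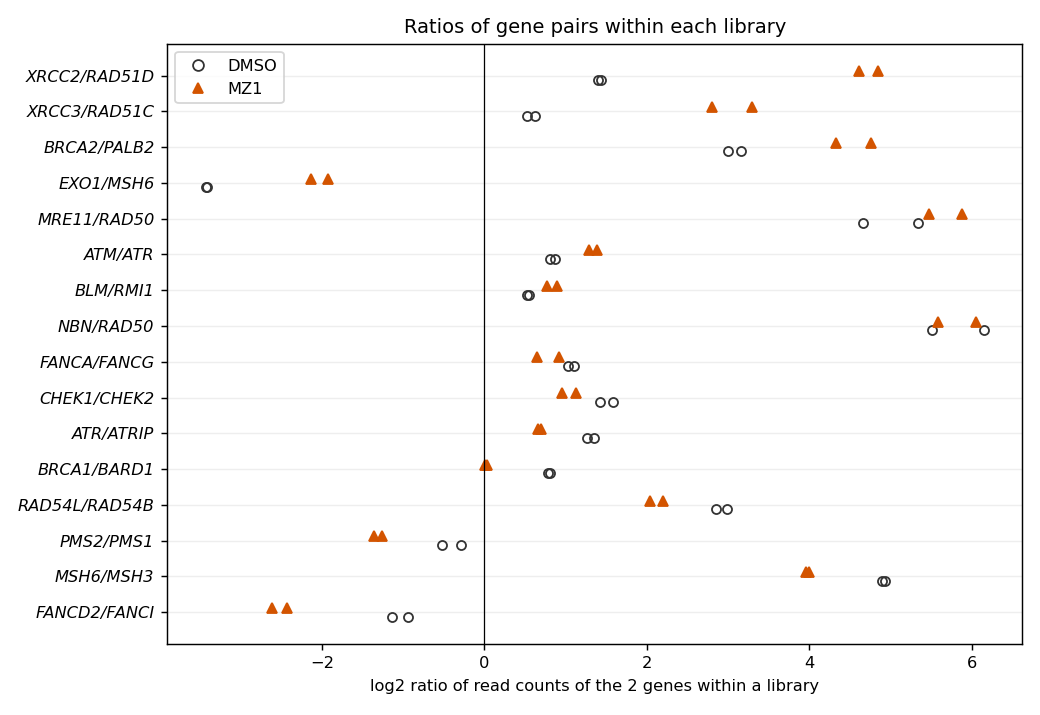
Log2 ratio of the read counts of 2 genes within each library for 16 pairs, ordered by the difference between groups; open circles are DMSO libraries and triangles MZ1 libraries. The XRCC2 to RAD51D ratio rose most, by 3.32, the FANCD2 to FANCI ratio fell most, by 1.48, and the NBN to RAD50 ratio overlapped between groups.

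Of the 16 ratios between partners or paralogs, 15 did not overlap between groups. For single genes the groups did not overlap in 91.3% of all those tested, and no share was computed over other pairs. These ratios do not depend on the scaling of the libraries. With 2 libraries against 2, a two-sided exact permutation test cannot give a p below 0.333, so no p is given for them. EXO1 rose relative to MSH6 (by 1.39 on the log2 scale) although the transcripts of both were called lower, and BLM rose relative to RMI1 by 0.30.

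Levels of different genes were compared per kilobase of exon, with the exons of all annotated transcripts of a gene merged. This length can exceed that of any single transcript, and the levels per kb and ranks below depend on it. With DMSO, MSH6 stood first at 79.4 CPM per kb, and FANCI (22.3), TOPBP1 (20.4), EXO1 (19.7) and NBN (19.3) followed. RAD51B (0.784) and RAD50 (0.219) stood last, the latter with the limit given above. With MZ1 the first 3 were again MSH6 (24.5), FANCI (19.4) and TOPBP1 (19.2). RAD52 moved from rank 32 of 40 to rank 4, at 18.8 CPM per kb, while NBN moved from rank 5 to 21, RBBP8 from 10 to 29 and FANCD2 from 17 to 30. Neighbours in this order, such as FANCI and TOPBP1 with MZ1, differ by less than their libraries do. Across the 40 genes the log2 fold change had a Spearman correlation of -0.002 with genomic span, 0.04 with exonic length and 0.07 with the DMSO level in CPM. Across 12499 tested protein-coding genes with DMSO reads the last was -0.28. The DMSO level is also the denominator of the fold change, which by itself lowers this correlation. Genes very low with DMSO passed the filter on low counts only if higher with MZ1, which can lower it further. The values -0.28 and 0.07 therefore do not describe a trait of the genes alone. All these correlations are descriptions over genes of the same 4 libraries.

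Of the 40 genes, 24 have a neighbour whose annotated start (GENCODE 29, GRCh38) lies within 1000 bases on the opposite strand, an arrangement in which both genes can share a promoter region. There were 25 such neighbours, of which 23 were in the count table and 19 were tested. Both genes were called in the same direction in 8 pairs and in opposite directions in 7. For 4 of the 19 neighbours a group held fewer than 20 reads, and leaving these out the counts were 6 and 6. Of all tested genes 84.2% were called in either direction, and no share was computed over other pairs of this arrangement. The call of the CHEK2 neighbour HSCB (-0.46) was lost in 9 of the 13 alternatives.

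Pairs that fell together included PMS2 and AIMP2, whose starts are 120 bases apart. AIMP2, a scaffold of the tRNA synthetase complex, fell from 52.4 ± 2.70 to 12.6 ± 1.37 CPM (SD, n = 2; -2.05 ± 0.10), more than PMS2 did (-0.98). DCTN5, which faces PALB2, fell by 0.47 on the log2 scale, less than PALB2. Next to the outermost start of RAD51D, 1764 bases from its RefSeq start, FNDC8 had 28 reads with DMSO and 2 with MZ1. Pairs that rose together were ATM with NPAT, a coactivator of histone genes (0.47 ± 0.08), XRCC3 with ZFYVE21 (1.59 ± 0.09), and BLM with CRTC3-AS1, which had 13 DMSO reads and 30 with MZ1. As given above, KLC1 covers 76.7% of the exonic length of XRCC3.

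In other pairs the genes parted. NBR1, an autophagy receptor gene whose start lies 236 bases from the outermost annotated BRCA1 start, rose from 45.2 ± 1.14 to 73.2 ± 1.62 CPM (SD, n = 2; 0.70 ± 0.06), while BRCA1 fell. Which annotated start of BRCA1 these cells use was not tested, so a shared promoter region is not shown for this pair. MOSPD2 rose next to FANCB (1.36 ± 0.13), ANKRD49 next to MRE11 (0.89 ± 0.12) and the pseudogene CIDECP1 next to FANCD2 (1.22 ± 0.17). ERC1 fell by 0.60 on the log2 scale next to RAD52. Its start lies 456 bases from the outermost annotated RAD52 start, which is 40359 bases from the RefSeq start used for the printed promoter. FKBP3 fell by 0.98 next to FANCM. TEX14, next to RAD51C, went from 6 reads with DMSO to 171 with MZ1. HNRNPK, 95 bases from RMI1, fell from 1051 ± 15.5 to 503 ± 2.90 CPM (-1.06 ± 0.04), whereas RMI1 was not called, and ORMDL1 rose by 0.64 next to PMS1, also not called.

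**Figure D4:**
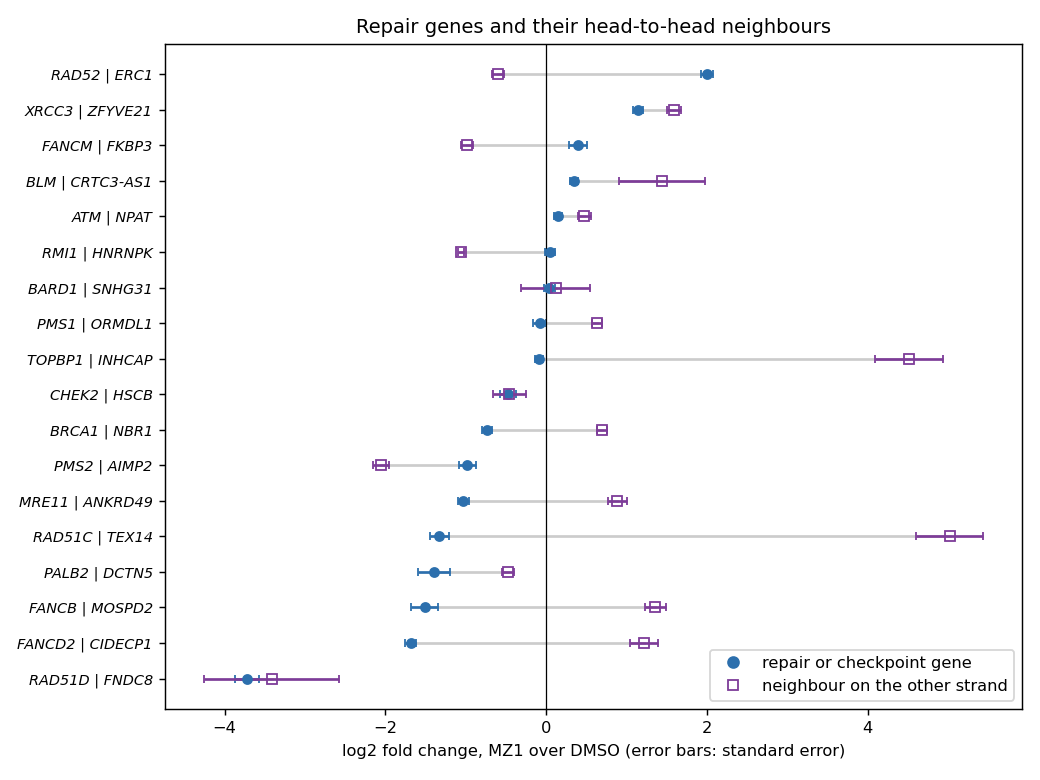
Log2 fold change (MZ1 over DMSO, edgeR, with standard errors) of each gene (filled circles) and of its tested neighbour on the opposite strand (open squares), ordered by the first. PMS2 and AIMP2 lie on the same side of 0, RAD52 (2.0) and ERC1 (-0.60) on opposite sides; TEX14, INHCAP, FNDC8 and CRTC3-AS1 rest on fewer than 20 reads in a group, and 1 tested neighbour is not plotted.

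Other genes of the same pathways were taken from 5 further lists. For comparison with each, 48.8% of tested protein-coding genes were called lower and 38.5% higher. Counts with upper-quartile scaling are given only for the other homologous recombination genes. Of 18 other Fanconi genes, 12 were called lower and 4 higher (median log2 fold change -1.02). FAAP100, a core complex subunit, fell 5.39-fold, from 95.5 ± 1.64 to 17.7 ± 0.675 CPM (SD, n = 2), RFWD3 2.26-fold and MAD2L2 2.03-fold. SLX4, the scaffold of the unhooking nucleases, rose from 33.1 ± 0.459 to 97.7 ± 1.95 CPM, or 2.95-fold, EME1, a partner of the nuclease MUS81, rose 2.03-fold, and FAN1 1.26-fold. Of 28 other homologous recombination genes 20 were called lower and 5 higher (median -0.48), or 15 and 7 with upper-quartile scaling. SEM1, which binds BRCA2, fell 2.41-fold, RPA2 of the single-strand binding complex 2.28-fold and BABAM2 4.49-fold. HELQ, a helicase that acts with BCDX2, rose 3.99-fold, from 12.2 ± 2.63 to 49.0 ± 1.81 CPM, RECQL5 1.80-fold and RECQL 1.41-fold. Other genes cover 41.5% of the exonic length of RECQL, 24.3% of FAN1, 18.2% of RECQL5, 16.4% of EME1 and 13.1% of BABAM2. How far reads of those genes enter these counts was not tested.

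Among 18 checkpoint mediators and clamp genes 12 were called lower and 6 higher (median -0.66). CDC25A, the phosphatase that CHK1 restrains, fell 6.05-fold, RIF1, which blocks resection, 3.11-fold and TIMELESS 1.84-fold. RAD9A of the checkpoint clamp rose 1.97-fold, the ubiquitin ligase gene RNF168 1.62-fold and H2AX 1.14-fold. End joining, the alternative to recombination for broken ends, had 14 of 20 genes called lower and 6 higher (median -0.76). PRKDC fell 3.52-fold and the Ku genes XRCC5 and XRCC6 fell 2.65-fold and 2.42-fold, while APLF rose 4.54-fold and POLQ, the polymerase of microhomology-mediated joining, rose 1.54-fold. Another gene covers 22.8% of the exonic length of APLF. Of 41 replication origin and fork genes 33 were called lower and 4 higher, with a median of -1.61. At least 2-fold falls made up 28 of the 41 there (68.3%), against 12 of the 40 repair and checkpoint genes (30%). Of tested protein-coding genes 29.9% fell as far. No test of the difference between these lists was made.

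**Figure D5:**
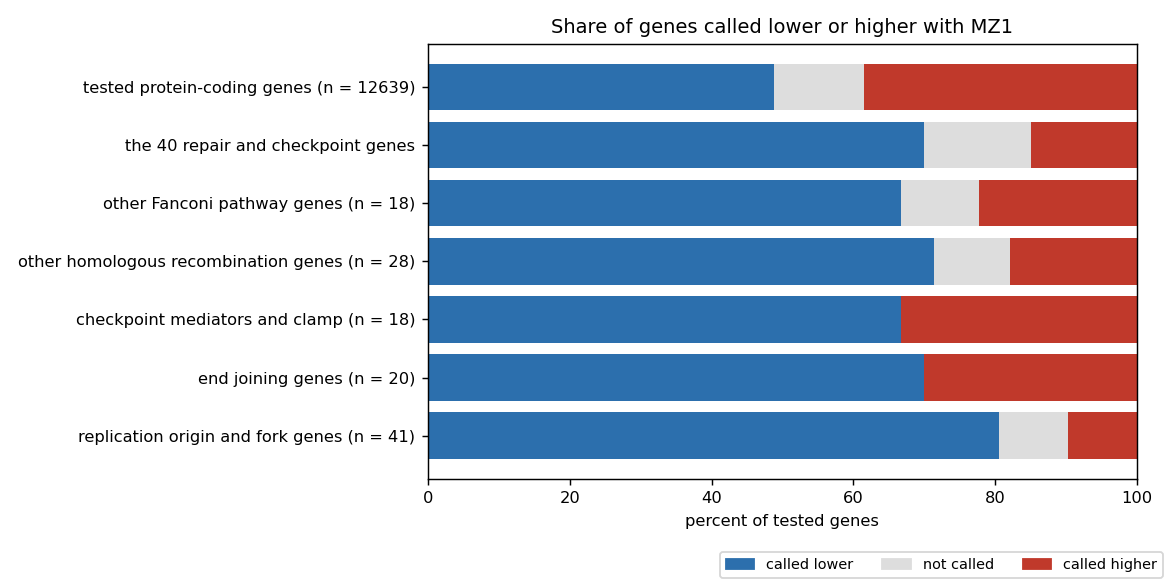
Share of tested genes called lower (blue), not called (grey) or higher (red) after MZ1, for all tested protein-coding genes and 6 gene lists. The 40 repair and checkpoint genes had 70% lower and 15% higher, protein-coding genes 48.8% and 38.5%, and replication genes 80.5% and 9.76%.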

How the data were processed

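Total RNA of 697 cells (2 DMSO and 2 MZ1 libraries) was extracted with TRIzol and made into libraries with an Illumina TruSeq RNA kit, per the labels' protocols. The authors deposited raw, whole-number read counts by Ensembl gene. The submitters' processing notes list HISAT2 2.2.0 and hg38. The program, annotation and strand setting used for counting are not given in the sources at hand. Symbols came from a gene name table (28597 of 28814 IDs matched), positions and exons from GENCODE 29 (GRCh38).

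The main test was that of edgeR 4.0.16 in R 4.3.3: filterByExpr by group, TMM scaling, a quasi-likelihood fit on treatment over the 4 libraries, and Benjamini-Hochberg adjustment over 16862 genes. Standard errors derive from the coefficient and its F statistic. The script was tested on simulated data with 50 changed genes at each size of change. It recovered 32% of 1.25-fold, 82% of 1.5-fold, 94% of 2-fold and 100% of 4-fold changes. Of its 159 calls 5 were false. Alternatives included DESeq2 1.42.0 and limma 3.58.1. Replicates differed by more than sampling noise (chi-square over its degrees of freedom was 2.45 within DMSO and 2.18 within MZ1). Depth was 14246367 to 16488005 reads per library.

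The 40 genes, the gene lists and the tests were chosen with earlier results of these data known. All 40 genes could be named; of each other list, up to 3 higher and 3 lower genes were named, by smallest adjusted p, and all neighbours could be. Printed promoters are those of the 2 largest called falls and the 2 largest called rises, at a mean log2 CPM of at least 3. Neighbours were found from outermost GENCODE starts. The windows around E2F matches were chosen after their counts were seen. Results for some genes, among them 1 neighbour, are not reported here.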

Additional observations from a re-analysis of the deposited data

How the results depend on the processing

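Of the 40 genes, 26 kept their direction and their side of the threshold in all 13 alternatives, 22 of them lower and 4 higher. The number called lower was 22 with upper-quartile scaling and 28 or 29 in the others, and the number called higher was 11 with upper-quartile scaling and 4 to 6 in the others. The median log2 fold change of -0.57 became -0.54 with DESeq2 size factors and with the DESeq2 test, -0.29 with upper-quartile scaling, -0.64 with library totals alone and without a count filter, and -0.53 with a stricter filter, and it ranged from -0.63 to -0.56 when each library was left out in turn. The members called higher ranged from 4 to 6 and those called lower from 28 to 29 in the same fits, and over all tested genes 6901 to 7005 were higher and 6658 to 6684 lower. Leaving out RAD50, XRCC3 and RAD54B, a choice made after seeing the data, left 27 lower and 5 higher of 37.

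Signs turned only for genes near 0. FANCI was at 0.069, PMS1 at 0.19 and TOPBP1 at 0.19 with upper-quartile scaling. With library totals alone BARD1 was at -0.039, BRCA2 at -0.033, RAD54B at -0.0047 and RMI1 at -0.027, and without a count filter these were at -0.039, -0.033, -0.0049 and -0.027. With each library left out in turn, BARD1 ranged from -0.049 to 0.12, BRCA2 from -0.018 to 0.10 and RAD54B from -0.012 to 0.15, and the neighbour SNHG31, at -0.053 with limma-voom, from -0.82 to 0.68. The cause was not tested. In the fit with the replicate block 28 genes were lower and 6 higher and no call among the 40 changed. The labels do not say that a number marks a shared culture, and the deviations of same-numbered libraries correlated at 0.014. Few reads limit RAD50 (18 with MZ1), RAD51B (47) and RAD51D (70).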
